A study of Mus musculus with 24 samples.

Results

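Oxidative phosphorylation is the last stage of respiration. Complexes I to IV of the inner mitochondrial membrane pass electrons from NADH and succinate to oxygen, which drives the pumping of protons by complexes I, III and IV, and complex V, the ATP synthase, uses the proton gradient to make ATP. Most subunits are encoded in the nucleus and imported, and the remainder are encoded by the mitochondrial genome (mtDNA), so complexes I, III, IV and V are built from both genomes, while complex II is nuclear only. Neurons draw most of their ATP from this pathway. The members were the rows of the hippocampal count table that map to protein-coding genes with symbol stems used for structural subunits. Membership rests on the symbol alone, so not every member is a structural subunit. The stems were Ndufa, Ndufb, Ndufc, Ndufs and Ndufv (complex I), Sdha to Sdhd (complex II), Uqcr (complex III), Cox4 to Cox8 (complex IV), Atp5 (complex V), and mt-Nd, mt-Cytb, mt-Co and mt-Atp for the mtDNA. This gave 103 of 57186 rows. The nucleus encoded 90 of them (40 in complex I, 4 in complex II, 8 in complex III, 19 in complex IV and 19 in complex V), and the mtDNA encoded 13 (7 in complex I, 1 in complex III, 3 in complex IV and 2 in complex V). Ndufa4 and Ndufa4l2 were kept with complex I by their names, although Ndufa4 is also regarded as a complex IV subunit.

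The samples were 24 bulk hippocampi, 3 mice in each of 8 groups of female or male, control or *bArKO*, young (6 months) or old (24 months) mice. Ages and lines are those of the sample labels; the series' own description gives the old mice a lower age and also names another line, *tArKO*, which was not analysed here. *bArKO* mice lack aromatase, the enzyme that makes estrogen, in the brain: they carry floxed aromatase alleles on a C57BL/6J background together with *Nestin-Cre*, a transgene expressed in neural progenitors, from which neurons, astrocytes and oligodendrocytes, but not microglia, descend. Controls carried the floxed alleles without the transgene. No group carried *Nestin-Cre* alone, so the transgene and the deletion cannot be told apart. The targeted gene, Cyp19a1, had 0 to 2 counts in each of the 12 control libraries and 0 to 3 in each of the 12 *bArKO* libraries, too few to check the genotype labels. Libraries held 7615391 to 18872054 counts. Hippocampal neuron markers were present in every library, at a summed 1469 to 1956 CPM (counts scaled to the library size, adjusted by trimmed mean of M values). Markers of the neighbouring choroid plexus ranged from 65.3 to 7366 CPM. Young male control replicate 3 was the highest, followed by old female control replicate 3 at 4106 CPM. Single markers of the thalamus, habenula and pineal gland also differed between libraries. In the thalamus list some did so widely (Slc17a6, 5.68 to 66.8 CPM) and some less (Lef1, 2.57 to 9.17 CPM). In bulk tissue, fewer cells of a type and less RNA per cell cannot be told apart.

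By transcript length, a single library stood apart from the others. In old female control replicate 3, the smallest of the 24, genes with short transcripts (400 to 1000 bases) lay 0.64 log2 units higher relative to genes with long transcripts (over 5000 bases) than in the average library. The next, old female *bArKO* replicate 1, was at 0.31, and the other 22 libraries lay between -0.25 and 0.15. By age, this value was -0.25 to 0.08 (median -0.07) in the young libraries. In the old it was -0.04 to 0.64 (median 0.03), so it was higher with age although the ranges overlapped. Many subunits are small proteins with short transcripts, so the main results are given beside the value after each library's trend on transcript length was removed, and results that rest on these libraries are given without them.

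The mtDNA members fell into distinct sets. Counts were high in every library for 7 of them, the lowest value being 2169.9 CPM (mt-Nd6), and 6 had next to none. Per kilobase of the whole transcript, mt-Cytb, the mtDNA-encoded subunit of complex III, was at a mean of 13960 CPM, mt-Nd1 of complex I at 12540 and mt-Co1, the catalytic subunit of complex IV, at 11871. The other complex I subunits were at 7552 (mt-Nd2), 5633 (mt-Nd6), 5462 (mt-Nd4) and 4772 (mt-Nd5). This order holds for whole transcripts and changed when the parts copied elsewhere in the genome were left out, as given after the copies. The ranges over libraries of mt-Cytb (11178 to 17118 CPM per kb), mt-Nd1 (9869 to 15774) and mt-Co1 (9531 to 14956) overlapped. The highest nuclear member, Cox4i1, was at 599 CPM per kb, below every library of every one of these 7 genes. mt-Nd6 is the only member transcribed from the light strand, and the strand option of its counting is not known.

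The other set comprised mt-Nd3 and mt-Nd4l of complex I, mt-Co2 and mt-Co3 of complex IV, and mt-Atp6 and mt-Atp8 of complex V. mt-Co2 had 2 counts in all 24 libraries together and the other 5 had 0. A count of 0 allows up to 3 counts, or 0.159 to 0.394 CPM depending on the library, and covers counting error only. mt-Co1, a neighbour of mt-Co2 on the mtDNA, had 4998672 counts. Mitochondrial DNA also occurs as copies inserted in nuclear chromosomes, so all 50-base windows (the read length of the study) of each member's transcript were searched for exact copies elsewhere in the GRCm39 genome. Every window of mt-Nd4l, mt-Co2, mt-Co3, mt-Atp6 and mt-Atp8 had one, as had 99.0% of those of mt-Nd3. For the 7 counted genes the share was 0 (mt-Nd1, mt-Nd6 and mt-Cytb), 7.61% (mt-Nd5), 8.29% (mt-Nd2), 51.1% (mt-Co1) and 62.2% (mt-Nd4). The longest copies lay on chromosome 1, in reverse orientation: chr1:24651853-24655265 (GRCm39, minus strand) matched chrM:6394-9806 over 3413 bases with 1 mismatch, and chr1:24650616-24651781 matched chrM:9877-11042 over 1166 bases with 0 mismatches. The annotation names pseudogenes over these places, of which Gm28438, over the copy of mt-Nd3, had 758 counts in 24 libraries, Atp6-ps had 78, Gm28661 had 65, and the 4 others that are rows of the table had 0 to 2. Windows from the middle of 3 of the uncounted genes are shown with the place of the copy, with mt-Cytb, which has no copy, for contrast. They are from GRCm39, 5′ to 3′ on the strand of the gene.
mt-Co2 (chrM:7330-7379, 2 copies, one at chr1:24654280-24654329): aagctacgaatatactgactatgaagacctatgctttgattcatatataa
mt-Co3 (chrM:8974-9023, 1 copy at chr1:24652636-24652685): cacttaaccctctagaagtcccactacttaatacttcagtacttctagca
mt-Nd3 (chrM:9608-9657, 1 copy at chr1:24652002-24652051): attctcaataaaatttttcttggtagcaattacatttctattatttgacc
mt-Cytb (chrM:14692-14741, no copy): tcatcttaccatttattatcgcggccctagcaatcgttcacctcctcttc

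A 50-base read from any of the first 3 windows matches more than 1 place. The study's alignment kept reads with up to 2 places, and HTSeq by default counts reads with a single place. Whether the copies account for the absent counts was not tested, since the reads were not analysed here. Reads of mt-Co1 and mt-Nd4 with a single place can come only from the part of each gene without a copy, which was 731 windows of mt-Co1 and 502 of mt-Nd4. Per 1000 windows without a copy, a scale chosen after seeing the data, mt-Co1 was highest at a mean of 25090 CPM (20143 to 31609 over libraries), above every library of the other 6 genes. It was followed by mt-Nd4 at 14994 (11718 to 18440), mt-Cytb at 14584 (11679 to 17883) and mt-Nd1 at 13217 (10401 to 16626), whose ranges overlapped. The levels of mt-Nd2, mt-Nd6 and mt-Nd5 were 8643, 6220 and 5307.

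**Figure D1:**
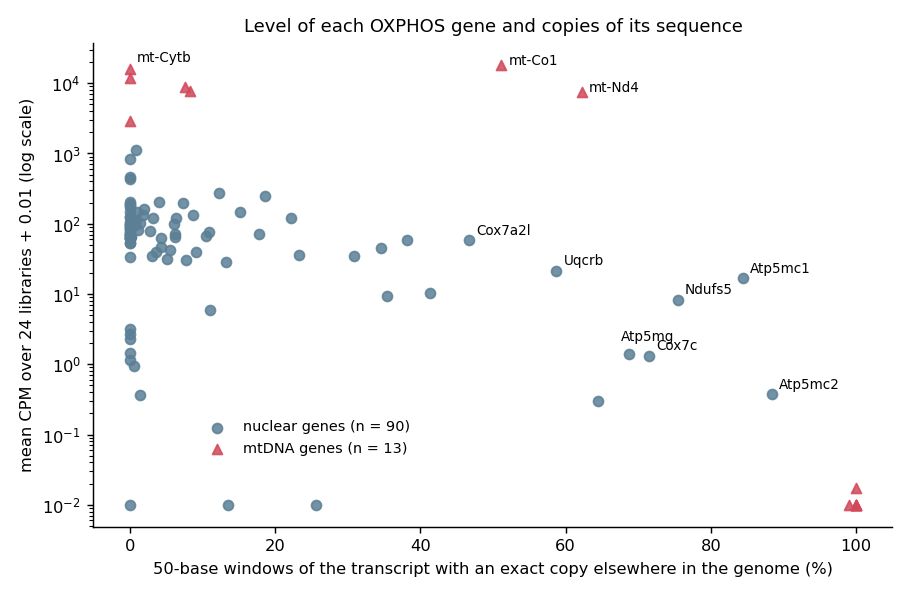
Mean CPM over the 24 libraries plus 0.01 (vertical, log scale) against the percentage of 50-base windows of the transcript that have an exact copy elsewhere in the genome (horizontal), for the 90 nuclear (circles) and 13 mtDNA (triangles) members. The 6 mtDNA genes at the lower right had copies of 99.0% or more of their windows and 2 counts in all, and the 6 nuclear genes with 60% or more of their windows copied lay at or under 16.8 CPM.

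Nuclear members showed the same pairing of copied sequence and low counts. Of the 74 nuclear members with under 20% of windows copied, the median level was 77.1 CPM, and 10 were under 10 CPM. Of the 10 with 20% to 60%, the median was 35.1 CPM, the highest was 119 CPM and 2 were under 10 CPM. Of the 6 with 60% or more, the median was 1.35 CPM, the highest was 16.8 CPM and 5 were under 10 CPM. Chosen by this share, these 6 were Cox7c of complex IV (71.5% of windows, 1.31 CPM), Ndufs5 of complex I (75.4%, 8.27 CPM), Atp5mg (68.7%, 1.39 CPM), Atp5mc1 (84.4%, 16.8 CPM) and Atp5mc2 (88.4%, 0.366 CPM) of complex V, and Cox5b-ps (64.5%, 0.292 CPM), a copy of Cox5b that the annotation calls protein coding. Atp5mc1, Atp5mc2 and Atp5mc3 encode the same c subunit of the ATP synthase rotor, and Atp5mc3, with no copied window, was at 204 CPM. Processed pseudogenes, which are reverse-transcribed copies of messenger RNAs, are common for genes of this kind. A window of the coding sequence of Cox7c is shown because 2 exact copies of it were found, one at chr11:75490715-75490764.
Cox7c: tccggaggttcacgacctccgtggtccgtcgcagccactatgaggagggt

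Levels of Cox7c, Ndufs5, Uqcrb (58.7%), Atp5mg, Atp5mc1 and Atp5mc2 are therefore uncertain, and so are comparisons of them with other genes.

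Among the nuclear members, the highest level per kilobase in complex IV was that of Cox4i1 at 599 CPM per kb (range over libraries 497 to 809), followed by Cox6a1 at 484 (383 to 693). In complex V it was Atp5f1b, the catalytic β subunit, at 588 (560 to 790), followed by Atp5f1a, the α subunit, at 340 (314 to 396). Cox4i1 and Atp5f1b thus overlapped, as did Cox4i1 and Cox6a1. Ndufa4 led the complex I names at 390 CPM per kb, followed by Ndufb10 at 147. Uqcr10 led complex III at 213, followed by the core protein gene Uqcrc1 at 117. In complex II, which also serves the citric acid cycle, the flavoprotein gene Sdha was at 141, and Sdhd, one of the membrane anchors, at 75.2. Transcript lengths were those of the canonical GENCODE vM39 transcript, some of which carry long untranslated ends, so that Sdhb at 25.8 and Sdhc at 25.3 CPM per kb were divided by more than their coding part.

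Several subunits have more than 1 form, in part tissue isoforms, and in most of these families 1 form made up nearly all of the level. By level per kilobase, Cox4i1 made up a median of 99.8% of the COX4 pair over the 24 libraries, Cox6a1 made up 99.0% of the COX6A pair, and Cox6b1 made up 98.7% of the COX6B pair. The lesser forms were Cox4i2, the lung isoform, Cox6a2, the heart and muscle isoform, and Cox6b2, the testis isoform. Cox8a made up 99.9% of its family, with Cox8b, the heart and muscle form, at 233 counts in all libraries and Cox8c at 0. Cox7b made up 99.9% and Ndufa4 99.3% of their pairs. In the COX7A family, Cox7a2 made up 74.8%, Cox7a2l, of which 46.8% of windows were copied, made up 23.6%, and the muscle form Cox7a1 made up 1.57%.

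The filter on low counts left 91 members in the fit of all 24 libraries, 84 nuclear and 7 mtDNA. The 12 that were not tested were the 6 uncounted mtDNA genes, Atp5mc2 (100 counts in 24 libraries), Cox7b2 (94), Cox5b-ps (78), and Ndufb11b, Cox8c and a second Atp5po row (0 each). A member is said to rise or fall where edgeR's quasi-likelihood test gave an adjusted p (Benjamini-Hochberg, over all genes tested) under 0.05.

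The nuclear members together made up 8628 to 12190 CPM in the 24 libraries, and the mtDNA members 58902 to 89212 CPM. The 12 young libraries had a nuclear sum of 8628 to 9611 CPM (median 8893), and the 12 old libraries had 8925 to 12190 (median 9333). The mtDNA sum was 58902 to 82563 CPM (median 70862) in young and 67722 to 89212 (median 74819) in old libraries. Young and old overlapped in both sums. The highest nuclear sum was that of old female control replicate 3, at 12190 CPM, while its mtDNA sum was 74843 CPM, near the median of the old libraries, and its ratio of mtDNA to nuclear members, 6.14, was the lowest of the 24 (6.14 to 8.98, median 7.94). By group, the nuclear sum was 8919 ± 141 CPM (SD, n = 3) in young and 10297 ± 1639 in old female controls, 9122 ± 483 and 9556 ± 868 in female *bArKO*, 8918 ± 418 and 9339 ± 156 in male controls, and 8892 ± 210 and 9282 ± 402 in male *bArKO* mice. The mtDNA sum was 71932 ± 6068 in young and 79697 ± 4205 in old female controls, 74302 ± 7434 and 79874 ± 10947 in female *bArKO*, 65588 ± 9681 and 73081 ± 2120 in male controls, and 68350 ± 8529 and 73610 ± 7091 in male *bArKO* mice. Both means were higher in the old mice of all 4 sex-genotype groups. Without old female *bArKO* replicate 1, the nuclear mean of that group was 9061 CPM (n = 2), below the 9122 CPM of its young mice. Without old female control replicate 3 it was 9350 CPM (n = 2) in old female controls, against 8919 CPM in the young. In male *bArKO* mice the nuclear difference dropped from 391 to 160 CPM without old replicate 1, and in male controls it moved from 421 to 276 CPM without young replicate 1 and to 661 CPM without young replicate 3. With any 1 library left out, the mtDNA mean stayed higher in the old, but its difference ranged from 4262 (without young replicate 1) to 10191 CPM in female controls, against 7764 with all mice. It ranged from 903 (without old replicate 1) to 11595 CPM in female *bArKO*, against 5572, and from 4150 (without young replicate 1) to 13044 CPM (without young replicate 3) in male controls, against 7493. In male *bArKO* mice it ranged from 730 (without young replicate 1) to 9198 CPM, against 5259.

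**Figure D2:**
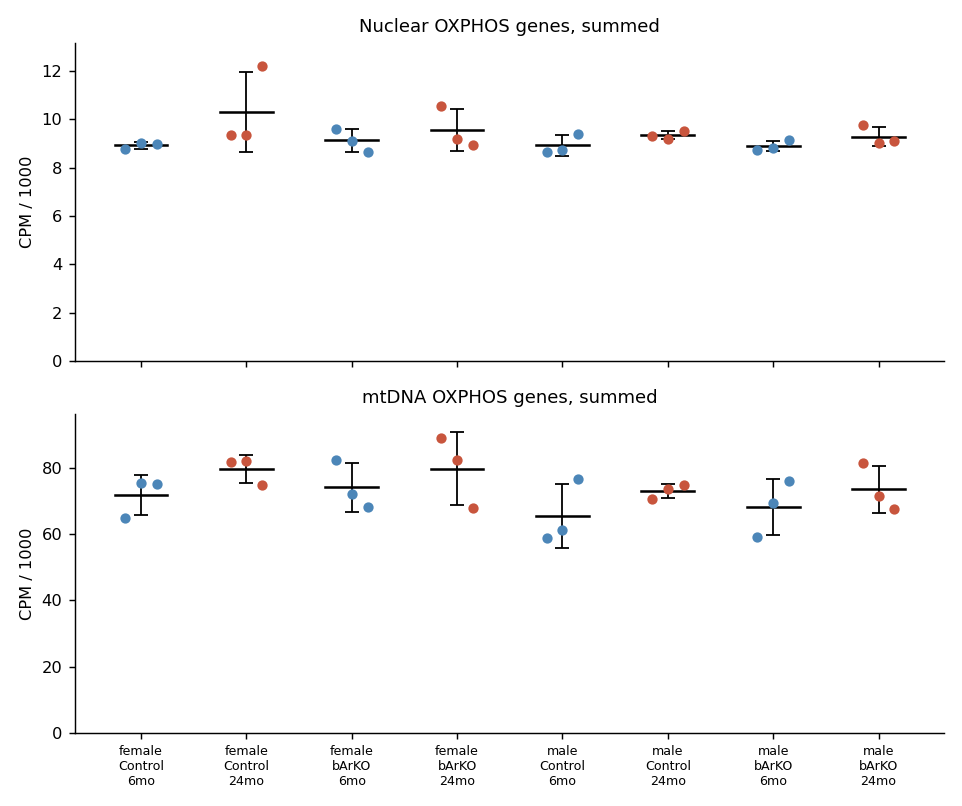
Summed CPM of the nuclear members (top) and of the mtDNA members (bottom), divided by 1000, in each of the 24 libraries by group, young (6mo) in blue and old (24mo) in red. Points are libraries, bars are the mean and SD of 3 mice; 1 old female control library lies at 12190 CPM in the nuclear sum, above all others.

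Age was compared first as the mean old against young difference over the 4 sex-genotype groups. In this comparison 10 members rose, all nuclear, and no member fell. This is 10 of the 91 tested, where 6.96% of all 15693 genes were called (4.22% called higher). DESeq2 called 13 members, where it called 10.1% of the genes it gave an adjusted p. Of the 10, 5 belong to complex IV (Cox8a, Cox6a1, Cox5b, Cox5a and Cox4i1), 4 to complex I (Ndufb7, Ndufb1, Ndufb9 and Ndufa6) and 1 to complex III (Uqcrh). All log2 fold changes were below 0.5, the fold threshold of the study, which 1.24% of all genes passed together with the adjusted p. At an unadjusted p under 0.05, 31 of 84 nuclear members were higher and 0 lower, where 12.7% of all genes were higher (23.9% in either direction). Without the length trend 13 were higher and 2 lower, where 11.6% of all genes were higher, so that the count was then near the share over all genes. The log2 fold change was above 0 for 78 of 84 nuclear members, with a median of 0.11, against a median of 0.01 and 52.3% above 0 over all genes.

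Cox8a, a small subunit of complex IV on chromosome 19 (chr19:7192515-7194997, GRCm39, minus strand), rose most clearly. In female controls it was at 223, 251 and 216 CPM in the young and at 276, 283 and 357 in the old. In male controls it was at 177, 185 and 238 in the young and at 285, 260 and 277 in the old. Old and young control mice did not overlap in either sex. In female *bArKO* mice it was at 264, 241 and 230 in the young and at 313, 269 and 252 in the old, which overlapped. In male *bArKO* mice it was at 205, 214 and 214 in the young and at 307, 236 and 222 in the old, which did not. The log2 fold change was 0.33 (SE 0.062, 12 old against 12 young mice, edgeR adjusted p = 0.00310), and all 12 old libraries lay above the young mean of their own group. After removal of the length trend it was 0.21 (SE 0.037, adjusted p = 0.00186).

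Cox6a1, the common form of subunit VIa, was at 219 to 295 CPM (median 244) in the young and at 253 to 395 (median 295) in the old. The ranges overlapped, with 11 of 12 old libraries above the young mean of their group. It rose by a log2 fold change of 0.27 (SE 0.062, edgeR adjusted p = 0.0102). Cox5b, a subunit on the matrix side, was at 43.9 to 58.5 CPM (median 52.8) in the young and at 52.8 to 92.3 (median 60.3) in the old, and rose by 0.28 (SE 0.065, adjusted p = 0.0129). Of its windows 38.2% had copies elsewhere, against 18.6% for Cox8a and 12.3% for Cox6a1. Cox4i1, which takes part in the regulation of the complex by ATP, rose by 0.24 (SE 0.062, adjusted p = 0.0235), with 389 to 514 CPM (median 421) in the young and 433 to 633 (median 490) in the old. Cox6a1, Cox5b and Cox4i1 were still called after removal of the length trend, at log2 fold changes of 0.15, 0.17 and 0.13. Cox5a, the partner of Cox5b, rose by 0.29 (SE 0.075, adjusted p = 0.0217), from 25.6 to 37.0 CPM (median 31.6) in the young to 29.3 to 52.5 (median 36.3) in the old, and was not called without the trend (0.18, adjusted p = 0.127).

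**Figure D3:**
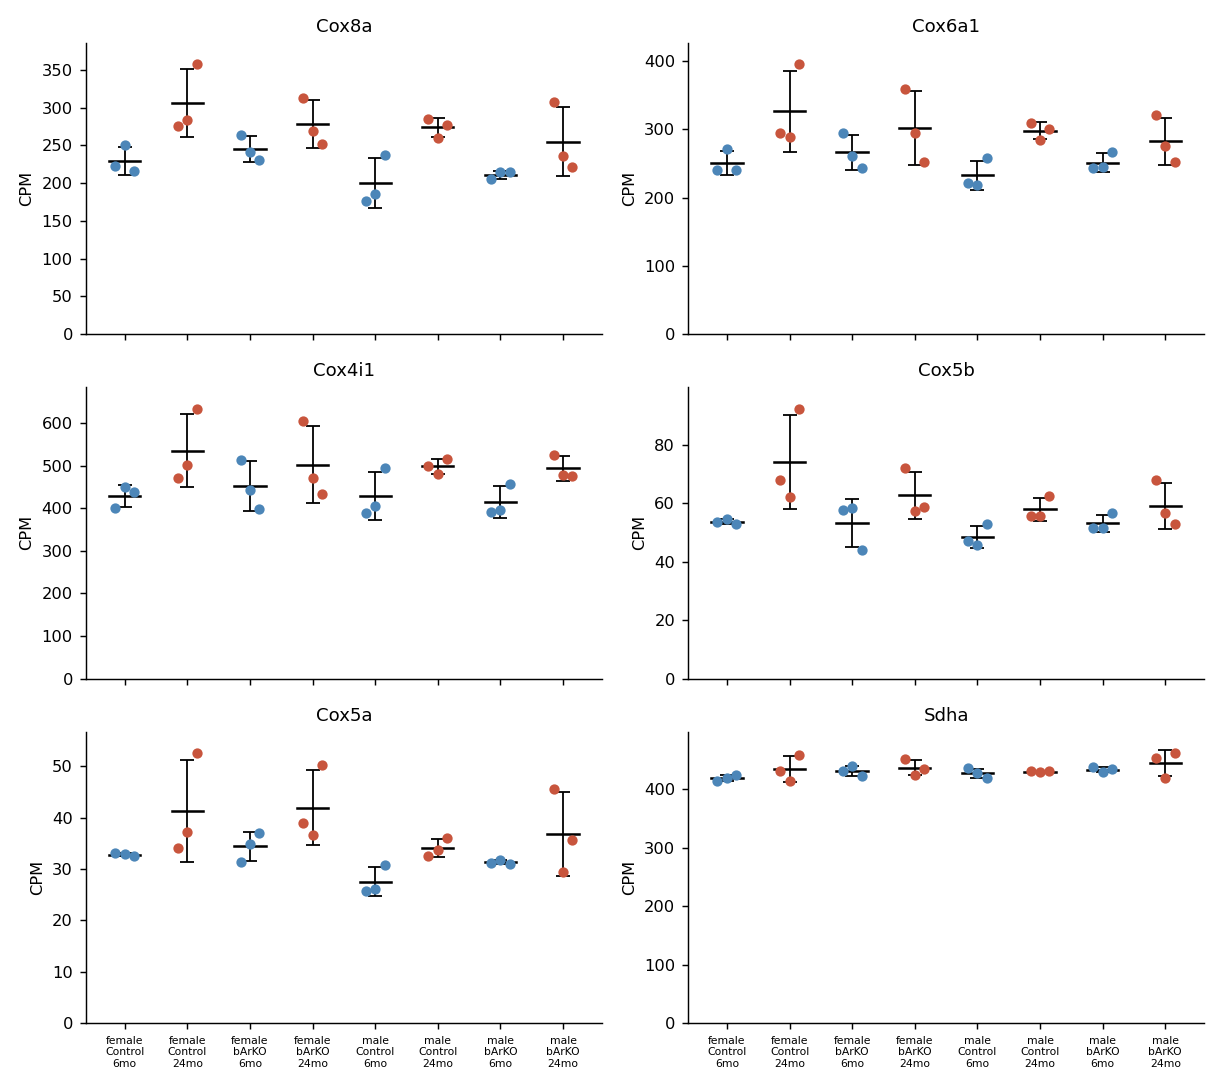
CPM of the 5 complex IV genes that rose with age and of Sdha, which was not called, in each library by group, young in blue and old in red, with the mean and SD of 3 mice. All vertical axes start at 0; in each complex IV gene the mean of the old mice lies above that of the young in all 4 sex-genotype groups, and the highest old value is that of female control replicate 3.

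Of the other 5, Ndufb9, a complex I accessory subunit, rose by 0.21 (SE 0.065, edgeR adjusted p = 0.0487) and was called also without the length trend (0.22, adjusted p = 0.0459). Its canonical transcript is annotated at 4197 bases, which includes a long untranslated end, and with the trend taken on coding length it was not called. Ndufb9 was called in 3 of 9 settings other than leaving out 1 library, and was lost also with the size factors of DESeq2's method (RLE) in place of TMM, as were Ndufb1 and Ndufa6, and with library sizes taken without mitochondrial genes, as was Ndufb1. Ndufb7 (0.20, SE 0.056, adjusted p = 0.0346), Uqcrh, the hinge protein of complex III (0.20, SE 0.059, adjusted p = 0.0431), Ndufb1 (0.22, SE 0.066, adjusted p = 0.0472) and Ndufa6 (0.19, SE 0.059, adjusted p = 0.0490) lost the call without the trend, at 0.08, 0.12, 0.12 and 0.07. The 10 calls thus became 5 (Cox8a, Cox6a1, Cox5b, Cox4i1 and Ndufb9), where 7.27% of all genes were called. The nuclear median was then 0.02, with 59 of 84 above 0. Genes of all kinds with transcripts of 400 to 1000 bases had a median of 0.11 before removal of the trend and 0.0020 after it. The difference between short and long transcripts had a median of -0.07 in the young libraries and 0.03 in the old.

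Leaving out 1 library at a time gave 4 to 24 called members, with 4.34% to 10.5% of all genes called. Without old female control replicate 3, 6 members were called, where 8.78% of all genes were. The 24 were called without young male control replicate 3, the library with the most choroid plexus marker RNA, where 10.5% of all genes were called, and the part of these markers in the result was not tested. The 4 fits with 4 called members called 4.34% to 4.71% of all genes. Cox8a, Cox6a1, Cox5b and Cox5a were called in all 24 of these fits, Cox4i1 in 20, Ndufb7 in 12, and Uqcrh, Ndufb1, Ndufb9 and Ndufa6 in 6 each. Without the 2 old female libraries with the strongest length trend, 4 members were called, where 6.29% of all genes were.

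**Figure D4:**
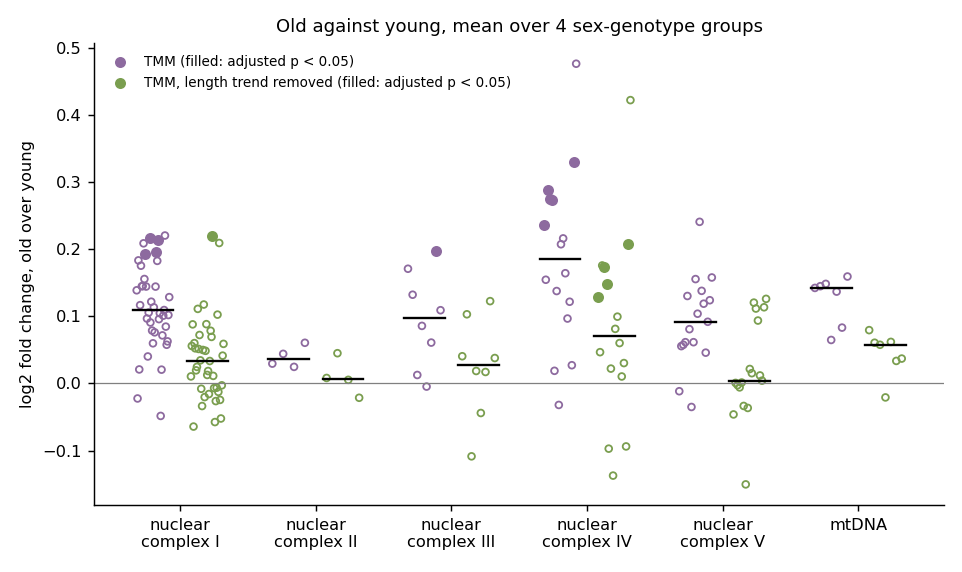
Log2 fold change of old over young mice, mean over the 4 sex-genotype groups, for the 91 tested members by complex, with usual scaling (violet) and after removal of each library's trend on transcript length (green). Filled points have an adjusted p under 0.05 and bars are medians; the complex IV median moves from 0.19 to 0.07 and the complex V median from 0.09 to 0.0041.

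Complex IV had the highest median, 0.19 over 16 tested members (0.07 without the length trend, 13 of 16 above 0). Complex I was at 0.11 over 39 members (0.03 without), complex III at 0.10 over 8 (0.03 without) and complex V at 0.09 over 17 (0.0041 without), with no complex V member called. In complex II the median was 0.04 over 4, and the 4 genes had log2 fold changes of 0.02 to 0.06. Sdha was at 414 to 439 CPM in young and 415 to 461 CPM in old libraries, with medians of 428 and 431. No test of the difference between complexes was made.

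All 7 tested mtDNA members had a log2 fold change above 0, with a median of 0.14, and none was called by edgeR, although 5 of 7 had an unadjusted p under 0.05, all higher, where 12.7% of all genes did in this direction. mt-Cytb was at 12788 to 18048 CPM (median 15454) in the young and at 14725 to 19582 (median 17312) in the old, a log2 fold change of 0.14 (SE 0.057, adjusted p = 0.117). The values of mt-Co1 (0.14, SE 0.057, adjusted p = 0.126), mt-Nd1 (0.15, SE 0.060, adjusted p = 0.130), mt-Nd4 (0.14, SE 0.056, adjusted p = 0.135) and mt-Nd6 (0.16, SE 0.071, adjusted p = 0.170) were similar. mt-Nd5 (0.08, SE 0.066) and mt-Nd2 (0.06, SE 0.057) were lower. Young and old libraries overlapped for each of the 7, and without the length trend the median was 0.06 and 0 had an unadjusted p under 0.05, where 22.7% of all genes did in either direction.

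Promoters of nuclear subunits are known for sites of NRF1, of the ETS factor GABP and of YY1. RefSeq promoters (GRCm38.p6, 250 bases before to 50 after the start) were at hand for 69 nuclear members, and were searched on both strands for GCATGCGC (NRF1), CCGGAAG (GABP) and AAGATGGC (YY1). These were present in 14.5%, 23.2% and 14.5% of the member promoters and in 3.05%, 9.93% and 3.19% of all 27025 promoters of the table. Of the 8 called members with an entry, 2 held the first, 4 the second and 0 the third. The promoters of Cox8a, Cox6a1 and Cox5b, the 3 members with the smallest p, are shown, with matches in capitals: Cox8a had 2 of CCGGAAG on the reverse strand, Cox6a1 had 1 of these and 1 stretch in which GCATGCGC overlaps itself on both strands, and Cox5b had none. A match is a description of letters, not a site.
Cox8a (GRCm38.p6, chr19:7217567-7217866, minus strand): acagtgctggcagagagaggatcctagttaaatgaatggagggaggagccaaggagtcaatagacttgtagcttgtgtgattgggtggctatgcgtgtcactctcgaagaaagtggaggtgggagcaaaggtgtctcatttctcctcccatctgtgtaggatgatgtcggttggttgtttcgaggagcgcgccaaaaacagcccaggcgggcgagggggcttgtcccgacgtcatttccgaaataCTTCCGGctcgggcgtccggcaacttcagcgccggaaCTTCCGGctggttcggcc
Cox6a1 (GRCm38.p6, chr5:115348909-115349208, minus strand): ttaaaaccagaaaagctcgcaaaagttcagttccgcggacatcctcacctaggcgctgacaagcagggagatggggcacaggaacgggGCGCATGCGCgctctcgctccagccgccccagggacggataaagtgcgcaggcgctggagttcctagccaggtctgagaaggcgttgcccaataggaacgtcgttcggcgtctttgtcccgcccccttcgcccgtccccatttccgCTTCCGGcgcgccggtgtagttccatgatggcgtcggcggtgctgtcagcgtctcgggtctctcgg
Cox5b (GRCm38.p6, chr1:36691237-36691536, plus strand): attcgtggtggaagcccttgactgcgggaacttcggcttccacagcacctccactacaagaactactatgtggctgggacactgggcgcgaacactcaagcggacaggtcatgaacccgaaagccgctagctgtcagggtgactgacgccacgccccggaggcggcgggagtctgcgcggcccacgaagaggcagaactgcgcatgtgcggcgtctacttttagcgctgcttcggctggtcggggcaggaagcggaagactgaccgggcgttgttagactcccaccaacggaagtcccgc

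Of 19 tested genes listed as regulators, 1 rose between old and young, where 4.22% of all genes were called higher. This was the membrane estrogen receptor gene Gper1 (0.38, SE 0.11, edgeR adjusted p = 0.0431). By qPCR, the study reported no significant difference in hippocampal Gper1 mRNA between its age, sex and genotype groups. Whether Gper1 acts on the members was not tested. Gper1 and Yy1 were named after their values were seen. Ppargc1a, the coactivator of mitochondrial biogenesis, had a log2 fold change of -0.06 (SE 0.071, edgeR adjusted p = 0.656). Nrf1 was at 0.17 (SE 0.056, adjusted p = 0.0650), Gabpa at -0.04 (SE 0.067, adjusted p = 0.787), Yy1 at -0.03 (SE 0.033, adjusted p = 0.669) and Esrra at 0.07 (SE 0.054, adjusted p = 0.446). Tfam, which packages and transcribes mtDNA, was at 0.05 (SE 0.043, adjusted p = 0.540) and Polrmt, the mitochondrial RNA polymerase, at 0.03 (SE 0.0495, adjusted p = 0.779). Of 15 tested assembly factors of complex I, 0 were called (median 0.06). Of 36 for complexes II to V, 2 rose, a share near the 4.22% of all genes called higher, both for complex III (named because so few were called): Uqcc3 (0.26, SE 0.063, adjusted p = 0.0154) and Uqcc2 (0.20, SE 0.059, adjusted p = 0.0383). Of these, Uqcc3 was called also without the length trend. Of 17 genes of pyruvate dehydrogenase and the citric acid cycle, 0 were called by edgeR and 4 were above 0, with a median of -0.05. With the length trend removed 3 of these fell (Pdha1, Pdhb and Idh3a), where 7.27% of all genes were called.

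Ribosomal protein genes and cell type markers also held members that rose with age, and their counts are read against 4.22% of all genes called higher (6.96% in either direction, 7.27% without the length trend) and 52.3% above 0. Of 74 tested cytosolic ribosomal protein genes, 67 were above 0 with a median of 0.19, and 20 rose (11 without the length trend, median 0.10). Of 78 mitochondrial ribosomal protein genes, 58 were above 0 with a median of 0.07, and 1, Mrpl52, rose, below the share over all genes. Of 9 microglial markers, 9 were above 0 and 8 rose, with a summed level of 542 to 611 CPM in young and 605 to 821 CPM in old libraries. Of 8 oligodendrocyte markers, 8 were above 0 and 3 rose, with a sum of 4749 to 9857 CPM in young and 7169 to 11592 CPM in old libraries. Of 12 general neuronal markers, 5 were above 0 and 1 fell, with a sum of 14617 to 16533 CPM in young and 13521 to 17464 CPM in old libraries. No marker of these 3 lists was at 0 in any library. Their part in the rise of the complex IV genes was not tested.

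Within the single sex-genotype groups, with 3 old and 3 young mice in each, no member was called. In female controls 37 of 84 nuclear members had an unadjusted p under 0.05, all higher, where 7.1% of all genes were (13.6% in either direction), and 81 were above 0 with a median of 0.24 (51.5% of all genes were above 0). Without the length trend the median was 0.11 with 74 above 0, and 14 had an unadjusted p under 0.05, all higher, where 6.6% of all genes were. With the usual scaling, Cox5b (0.46, SE 0.13, edgeR adjusted p = 0.190), Ndufb7 (0.39, SE 0.11, adjusted p = 0.197) and Cox8a (0.41, SE 0.12, adjusted p = 0.215) had the smallest p. All 3 old values of each lay above all 3 young, as for 37 of 84 nuclear members, against 8.29% of all genes not overlapping in this direction. With 3 against 3 mice an exact two-sided permutation test of a single gene cannot give a p below 0.1. Without old female control replicate 3, the median log2 ratio of mean CPM over the 84 genes dropped from 0.23 to 0.08, with 64 above 0.

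In the other 3 groups the nuclear median was lower. It was 0.09 in female *bArKO* mice, with 77 of 84 above 0 (51% of all genes) and 0 members at an unadjusted p under 0.05 (7.51% of all genes). Without the length trend it was 0.02 with 52 above 0, and 0 members passed (8.1% of all genes). Without old replicate 1 of this group the median log2 ratio was -0.00054, with 40 of 84 above 0, so that the direction rests on 1 library. It was 0.05 in male controls, with 56 above 0 (48.1% of all genes), 2 members higher (Cox8a and Cox6a1) and 1 lower (Cox6b2) at an unadjusted p under 0.05 (6.64% of all genes). Without the length trend the direction turned, to -0.0096 with 38 above 0, and 2 nuclear members were higher and 2 lower (7.43% of all genes). It was 0.09 in male *bArKO* mice, with 64 above 0 (52.6% of all genes) and 4 members higher and 0 lower (13.1% of all genes). Here too it turned without the length trend, to -0.0037 with 41 above 0, and 1 nuclear member was higher and 3 lower (15% of all genes). Called genes of any kind made up 0.0956%, 0.147%, 0.0191% and 0.0255% of those tested in the 4 groups in this order, and DESeq2 also called 0 members in each. The mtDNA median was 0.17, 0.10, 0.16 and 0.13, with 7 of 7 above 0 in each group. Leaving out 1 library at a time moved it to 0.09 to 0.20 in female controls, to 0.01 (without old replicate 1) to 0.21 in female *bArKO*, to 0.07 (without young replicate 1) to 0.32 (without young replicate 3) in male controls, and to 0.0017 (without young replicate 1) to 0.20 in male *bArKO* mice. The difference in the age response between the sexes was tested as an interaction. No member was called, and 3 had an unadjusted p under 0.05 (6.26% of all genes): Ndufa12 (-0.29, SE 0.12), Atp5mc1 (-0.35, SE 0.15) and Uqcrb (-0.29, SE 0.12), all with a smaller log2 fold change in males (edgeR adjusted p = 0.780 each). After removal of the length trend 6 nuclear members had one, where 7.33% of all genes did.

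**Figure D5:**
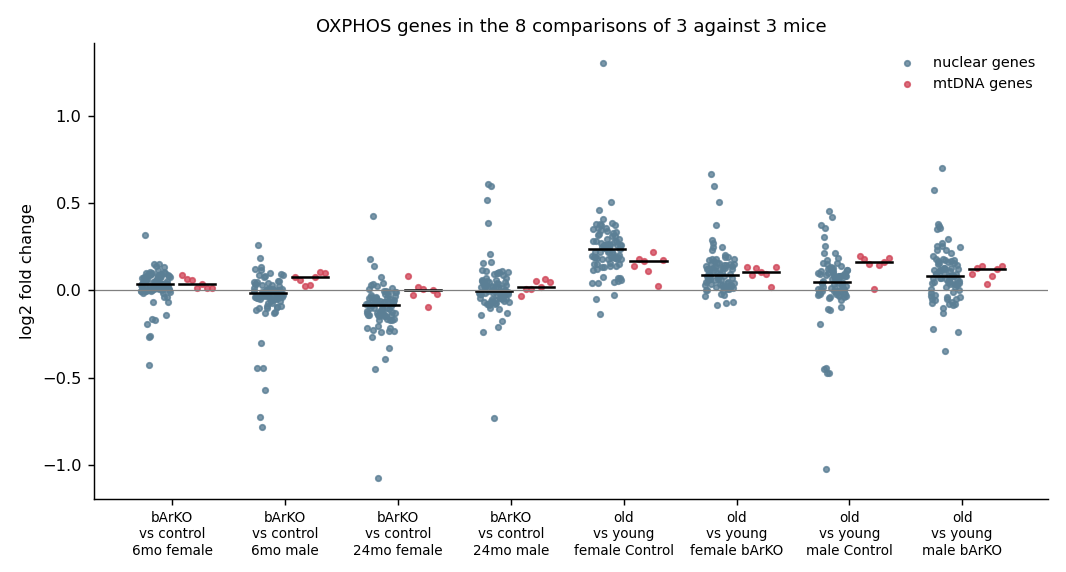
Log2 fold change of every tested member, nuclear (blue) and mtDNA (red), in the 8 comparisons of 3 against 3 mice: *bArKO* over control at each age and sex, and old over young in each sex and genotype. Bars are medians; the nuclear median is 0.24 for old over young female controls and -0.08 for *bArKO* over control in old females, comparisons that share the 3 old female control mice.

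Loss of brain aromatase was compared within each age and sex. No member was called in any of the 4 comparisons, by edgeR or by DESeq2, where 0% of all genes were called by edgeR. In young females the nuclear median log2 fold change was 0.04, with 65 of 84 above 0 (51% of all genes), and 0 members had an unadjusted p under 0.05 (1.95% of all genes). In young males it was -0.01, with 32 above 0 (50.1% of all genes), and 1 member did (4.65% of all genes), Cox5a, at 31.1, 31.8 and 31.1 CPM in *bArKO* and 25.6, 26.2 and 30.8 in control mice (0.19, SE 0.087, edgeR adjusted p = 0.999). The 2 groups did not overlap. In old males the nuclear median was -0.0031, with 40 above 0 (51.7% of all genes), and 1 member did (1.82% of all genes): Ndufa4l2, a hypoxia-inducible relative of Ndufa4, was at 2.49, 1.83 and 1.60 CPM in *bArKO* and 3.73, 3.02 and 3.15 CPM in control mice (-0.73, SE 0.26, adjusted p = 1.00). These groups did not overlap either. Ndufa4l2 is also among the 8 listed markers of mural cells of blood vessels. Their sum was 203 to 245 CPM in old male control and 192 to 275 CPM in old male *bArKO* mice. Rgs5 alone had a mean of 155 CPM over all libraries, so the sum says little on markers as low as Ndufa4l2 (mean 2.68 CPM).

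In old females the nuclear median was -0.08, with 10 of 84 members above 0 against 52.2% of all genes (-0.05 with 21 above 0 without the length trend). A single member, 1 of 91, had an unadjusted p under 0.05 (3.32% of all genes), Atp5po, the stalk subunit of the ATP synthase. It was at 69.1, 63.0 and 61.5 CPM in *bArKO* and 72.4, 66.5 and 95.7 CPM in control mice (-0.27, SE 0.11, edgeR adjusted p = 0.956), and the groups overlapped. Control replicate 3, at 95.7, was the highest. Without this library the median log2 ratio of mean CPM over the 84 genes turned from -0.09 to 0.04, with 63 of 84 above 0, and the mean nuclear sum was 9556 CPM in *bArKO* (n = 3) and 9350 CPM in control mice (n = 2). Without *bArKO* replicate 1 in place of it the median was -0.21, and without both it was -0.04. The mtDNA median was 0.0027, with 4 of 7 above 0, and its direction was not stable: leaving out 1 library at a time gave -0.09 (without *bArKO* replicate 1) to 0.11 (without *bArKO* replicate 3).

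Over all 4 age-sex groups, the mean *bArKO* against control difference had a nuclear median of -0.02, with 25 of 84 above 0 (48% of all genes), and an mtDNA median of 0.02. Without old female control replicate 3 the nuclear median was 0.01 with 52 of 84 above 0, so that its direction rests on 1 library, and without old female *bArKO* replicate 1 it was -0.05 with 7 above 0 and the mtDNA median was -0.0022. No member was called by edgeR or DESeq2, and 0 members had an unadjusted p under 0.05, against 2.65% of all genes. The smallest p was that of Atp5mk, a small membrane subunit of complex V (0.19, SE 0.11, edgeR adjusted p = 1.00). Cox8a was at 245 ± 17.4 CPM (SD, n = 3) in young female *bArKO* and 230 ± 18.5 in young female control mice, and at 278 ± 31.6 and 306 ± 45.0 in the old, within the spread of the groups at both ages. The age by genotype interaction called no member in females (0 at an unadjusted p under 0.05, 3.89% of all genes) or in males (1, Ndufa4l2, 3.38% of all genes), nor did the sex by genotype interaction in the young (1, Ndufs7, 2.86%) or the old (1, Ndufa4l2, 1.6%).

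Between the sexes, averaged over age and genotype, no member was called by edgeR (0.178% of all genes were) or by DESeq2. The nuclear median log2 fold change of males over females was -0.08, with 10 of 84 above 0 (48.9% of all genes), and the mtDNA median was -0.12, with 0 of 7 above 0. Without old female control replicate 3 the nuclear median was -0.05 with 21 above 0, and without this library and old female *bArKO* replicate 1 it was -0.02 with 29 above 0, while the mtDNA median was -0.14 and -0.12. At an unadjusted p under 0.05, 17 of 91 members were lower in males and 0 higher, where 5.4% of all genes were lower (10.1% in either direction). Cox6a2 (-0.43, SE 0.15, edgeR adjusted p = 0.343), Cox8a (-0.17, SE 0.062, adjusted p = 0.343) and Cox5a (-0.21, SE 0.075, adjusted p = 0.354) had the smallest p. Without the length trend the nuclear median was -0.02 and the mtDNA median -0.08, and 11 members had an unadjusted p under 0.05, 8 lower and 3 higher in males, where 10% of all genes had one in either direction.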

How the data were processed

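RNA of 24 hippocampi was sequenced as single-end 50-base reads. The authors trimmed reads (Trim Galore 0.6.10, cutadapt 4.2), aligned them to GRCm39 (STAR 2.7.9a) and made the deposited counts, raw whole-number counts of reads per gene, with HTSeq 2.0.2. The library kit keeps strand; no HTSeq option is named, and defaults are stated for options not named. Xist had 87255 counts over all libraries and its antisense gene Tsix 20; the strand option used is not known. Library totals were 7615391 to 18872054 counts. Here, rows were matched to GENCODE by gene ID, filtered by expression and tested with edgeR 4.0.16 (quasi-likelihood, TMM factors, R 4.3.3) with 1 coefficient per group. Genotype within an age and sex, and its interaction with sex, were fitted in the 12 libraries of that age. All other comparisons were fitted in all 24, among them the mean genotype difference and the age by genotype interactions. The p-values were adjusted over all genes tested (Benjamini-Hochberg). The length trend was removed per library by lowess on log transcript length (span 0.3). DESeq2 1.42.0 was an alternative. The scripts were tested on simulated counts. Replicate numbers only name mice. The genes named were all mtDNA and Sdh members, isoform families, the 2 highest members per complex, those with the smallest p or called, and 6 regulators. Yy1, the flagged genes and those with many copied windows were named as well. Members and lists were chosen with earlier results of these data known. The replicates are separate mice.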

Additional observations from a re-analysis of the deposited data

Results flagged for a closer look

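For 2 complex I subunits, all old female controls lay above all young female controls, and all old male controls lay below all young male controls. Among all genes, old and young did not overlap, with the old higher, for 8.29% in female controls. With the old lower, this held for 5.68% in male controls. The share of all genes with both was not counted. No member showed this opposition between female and male *bArKO* mice. Ndufs7, which carries an iron-sulfur cluster, had a log2 fold change of old over young of 0.3346 (SE 0.1242) in female and -0.0954 (SE 0.1232) in male controls. It was at 65.7, 63.8 and 64.6 CPM in young and 68.2, 68.1 and 109 CPM in old female controls, and at 69.4, 73.8 and 68.8 CPM in young and 67.2, 66.9 and 64.4 CPM in old male controls. Ndufa12, an accessory subunit, had 0.2586 (SE 0.118) and -0.1141 (SE 0.1168), and was at 36.7, 35.6 and 51.9 CPM in old female and 33.0, 34.1 and 34.4 CPM in old male controls. In both genes the highest value was that of old female control replicate 3. The difference between female and male controls alone was not tested, and the interaction of age and sex over both genotypes gave -0.18 (SE 0.12, edgeR adjusted p = 0.839) for Ndufs7 and -0.29 (SE 0.12, adjusted p = 0.780) for Ndufa12.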

How the results depend on the processing

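The number of members called between old and young over the 4 sex-genotype groups, 10, was 13 with DESeq2 (10.1% of all genes called), 16 without a filter beyond 1 count (4.96%), 5 with the length trend removed (7.27%), 6 with the trend taken on coding length (8.12%), 4 without the 2 old female libraries with the strongest trend (6.29%), and 4 with the trend removed and old female control replicate 3 left out (8.55%), against 6.96% as reported. The last 3 were chosen after seeing the data. Leaving out 1 library at a time gave 4 to 24 calls, with 4.34% to 10.5% of all genes called. It gave 4 without old female *bArKO* replicate 1, young male control replicate 1 or 2, or young female *bArKO* replicate 3, and 24 without young male control replicate 3. It gave 5 without old male *bArKO* 1, old male control 3, young male *bArKO* 1 or 2, young female control 1 or young female *bArKO* 2. It gave 6 without old male control 1, old male *bArKO* 2, old female *bArKO* 2, old female control 3, or young female control 2 or 3. The cause was not tested. A replicate block gave a count of 6 (6.71% of all genes), and the numbers did not pair the mice, since no comparison had every same-number correlation over 0.1. All other counts under the block were 0. Without a filter beyond 1 count, 3 members were called between old and young female controls (0.975% of all genes), 1 between old and young male controls (0.575%), and 1 between males and females (0.766%), also with the fold threshold. There were 328 settings of counts and sums other than leaving out 1 library, those named above included. Of these, 318 stayed within 1.5 times the count or within the spread between replicates. Apart from the age count of 10, every count of called members was 0 as reported, and 0 against 0 was taken as the same. The 318 therefore say little on the age count. Its values of 16, 5, 6 and 4 above were outside 1.5 times, as were 17 of the 24 fits without 1 library. There were 2408 settings of named genes and of medians over the members. Of these, 2275 stayed the same, 118 lost the call, 5 gained it, 0 reversed it and 10 medians moved by more than the spread. All 118 lost calls were of the 10 members called between old and young, each tried in 24 fits without 1 library and 9 other settings. Other named genes were not called as reported and could not lose a call. Cox8a, Cox6a1 and Cox5b kept the call in all settings, while Uqcrh, Ndufb1, Ndufb9 and Ndufa6 kept it in 6 of the 24 fits each. The nuclear median between old and young female controls moved to 0.11 without the length trend and to 0.04 to 0.11 under the other settings of trend and old female libraries. Without old female control replicate 3 it was 0.08, and between *bArKO* and control in old females it was then 0.04, against -0.20 without old female *bArKO* replicate 1. Without that control library the nuclear median of the age by genotype interaction in females moved from -0.14 to -0.0013 and that of the sex by genotype interaction in the old from 0.10 to -0.03. The mtDNA median between old and young male controls was 0.32 without young replicate 3. Per window without a copy in place of per kilobase, mt-Co1, mt-Nd4 and mt-Nd2 moved by more than the spread. Depth limits the genes with few counts, for which 3 counts were 0.159 to 0.394 CPM.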
